A study of Mus musculus with 35 samples.

Results

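The genes described here are the transcription factor NRF2 (gene Nfe2l2), its repressor KEAP1 and 8 antioxidant genes known as NRF2 targets: Gclm, Gclc, Gsr, Slc7a11, Txnrd1, Srxn1, Prdx1 and Sqstm1. They were taken by symbol, as 10 of the 47069 gene identifiers in the deposited expression tables, and all 10 were among the 11354 genes with a mean of at least 1 FPKM (fragments per kilobase, relative to library size) that were tested. The 35 libraries were made from cultured bone marrow-derived macrophages (BMDMs) of C57BL/6 mice, 17 from wild-type cells and 18 from cells labelled AMPKa1-/-, that is, lacking a catalytic subunit of the energy-sensing kinase AMPK. Each genotype received vehicle (DMSO), the synthetic glucocorticoid dexamethasone (Dex, 100 nM), the bacterial endotoxin LPS (100 ng/ml), LPS + Dex, DAMPs (1 µg/ml) or DAMPs + Dex for 24 h. There were 3 replicates per group except wild-type LPS, with replicates 2 and 3. The labels do not say which damage-associated molecules the DAMPs were. According to the study's methods the mice were young adults of both sexes, and the deleted part of the AMPKa1 gene is not given in the sources used here. The labels give bone marrow as differentiated for 5 to 7 days with 30% L929 cell-conditioned medium. Library totals were read from the smallest steps between the FPKM of low genes and came to 15837203 to 31955298 fragments. In a gene 1 kb long a single fragment then counts for 0.0313 to 0.0631 FPKM.

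In resting cells KEAP1 holds NRF2 and hands it to a ubiquitin ligase built on Cullin 3, so NRF2 protein is short-lived and its activity is set largely by its stability and not by its transcript. When oxidants or electrophiles modify cysteines of KEAP1, NRF2 accumulates, pairs with small MAF proteins and binds antioxidant response elements in genes for glutathione synthesis, the thioredoxin system and detoxification. In macrophages this programme limits oxidant damage and is known to dampen inflammatory gene expression. RNA levels as measured here give neither NRF2 protein nor its binding.

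Before the antioxidant genes, the labels were checked. Prkaa1, which encodes AMPKα1, was at 15.9, 11.8 and 15.3 FPKM in wild-type vehicle libraries and at 14.8, 16.5 and 15.4 in those labelled AMPKa1-/-. With Dex it was at 26.1, 23.2 and 19.1 in wild-type and 21.5, 14.03 and 20.4 in the labelled libraries, and with LPS at 15.3 and 10.4 and at 9.05, 11.2 and 10.5. The groups overlapped under each of these treatments. With LPS + Dex the wild-type values were 20.5, 13.7 and 8.59 and the labelled values 12.5, 12.9 and 9.65, with DAMPs 17.9, 12.4 and 11.03 against 10.7, 15.8 and 16.4, and with DAMPs + Dex 20.9, 12.5 and 19.5 against 21.8, 20.02 and 24.00. Those groups overlapped too. The transcript was therefore not shown to be lower in the labelled libraries: the log2 difference ran from −0.29 (Dex, adjusted p = 0.35) to 0.33 (DAMPs + Dex, adjusted p = 0.801). A value summed over the whole gene cannot check a deletion of part of it, so these libraries are called by their label throughout.

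The treatments were checked on genes known to respond to them. Tsc22d3, a glucocorticoid-induced gene (GILZ), went from 54.3, 51.7 and 54.6 FPKM in wild-type vehicle to 724, 667 and 736 with Dex, and from 53.3, 48.3 and 52.9 to 744, 839.7 and 899 in the labelled libraries. Nos2, the inducible nitric oxide synthase of endotoxin-treated macrophages, was at 35.7 and 134 FPKM with LPS in wild-type and at 32.2, 45.99 and 48.3 in the labelled libraries. The macrophage markers Adgre1, Cd68, Csf1r, Itgam, Lyz2, Mertk, Fcgr1, Cd14 and Spi1 each had a mean of at least 1 FPKM, and Lyz2 was the most abundant of them at 10344 to 35906. Of 11 neutrophil and precursor markers, 6 had a mean of at least 1 FPKM. S100a8, the most abundant of them, was at 1.09 to 1147 FPKM, while the defining markers Ly6g, Elane, Mpo, Prtn3 and Cxcr2 stayed under 0.5 FPKM in every library. The 4 T cell and 6 erythroid markers also stayed under 0.5 FPKM everywhere. The summed B cell list reached at most 2.05 FPKM, and the mast cell, basophil and eosinophil list at most 1.16. Of 6 dendritic cell markers only Ccr7, which activated macrophages also express, had a mean of at least 1 FPKM, and Flt3, Clec9a and Siglech stayed under 0.5.

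The sequences below are the 5 places near the start of these genes where the letters TGACNNNGC, the core of the antioxidant response element, were found on either strand. They are shown because these letters are the core of the element through which NRF2 is known to act. Whether NRF2 binds at any of these places was not tested. RefSeq promoter windows (GRCm38.p6, 250 bases before to 50 after a start, 300 bases in all) were at hand for 8 of the 10 genes, not for Gclc and Gsr. These 8 genes had 10 windows. Capitals mark the match, the sequence is written 5′ to 3′ on the strand of the gene, and the position of its first base is counted from the start.
Nfe2l2, chr2:75704875-75704913, minus strand, position −240: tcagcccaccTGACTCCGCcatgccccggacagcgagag
Gclm, chr3:122245403-122245451, plus strand, position −134: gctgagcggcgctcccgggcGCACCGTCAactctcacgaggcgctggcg
Txnrd1, chr10:82859094-82859142, plus strand, position −92: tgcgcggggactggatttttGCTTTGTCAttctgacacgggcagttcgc
Prdx1, chr4:116685446-116685494, plus strand, position −133: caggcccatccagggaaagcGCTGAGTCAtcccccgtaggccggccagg
Srxn1, chr2:152105542-152105570, plus strand, position 29, in an exon: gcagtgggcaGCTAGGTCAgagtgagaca
The Txnrd1 window belongs to a start inside the annotated gene. In Gclm, Txnrd1, Prdx1 and Srxn1 the match reads on the opposite strand, as TGACGGTGC, TGACAAAGC, TGACTCAGC and TGACCTAGC. The letters were in 12.4% of all 32851 windows of this length and in 5 of the 10 windows of these genes. The windows of Keap1, Slc7a11 and Sqstm1 did not hold them, which says only that these letters are not in these 300 bases.

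The AP-1 motif TGANTCA, read on both strands, was in 7.81% of all windows and in 2 of the 10 windows of the 8 genes, those of Srxn1 and Prdx1. It is bound by FOS and JUN proteins and can overlap the letters of an antioxidant response element. In Prdx1, TGAGTCA starts at position −131 inside the match printed above. A stretch from each gene is shown because these 2 genes fell most under Dex alone in wild-type, with capitals marking the AP-1 letters. The windows of Nfe2l2 and Txnrd1, which Dex also lowered, did not hold these letters. Any part of the letters in the Dex changes was not tested.
Srxn1, chr2:152105459-152105505, plus strand, position −45: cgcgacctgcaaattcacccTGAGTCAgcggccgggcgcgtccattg
Prdx1, chr4:116685349-116685388, plus strand, position −237: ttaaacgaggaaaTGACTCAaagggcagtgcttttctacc
The half-site pair ACANNNTGT of the glucocorticoid response element was in 6.85% of all windows and in none of the 10 windows of the 8 genes.

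LPS lowered Nfe2l2 itself and most of the antioxidant genes, and raised Keap1, Gsr and Slc7a11. In wild-type cells 9 of the 10 genes passed the test, 3 higher and 6 lower, where 55.7% of all genes tested were called (19.9% higher and 35.8% lower). The median over the 10 was −1.10 (log2), against −0.19 over all genes. In the labelled libraries 9 of 10 were called as well, again 3 higher and 6 lower (64.3% of all genes, 20.2% higher and 44.1% lower), with a median of −0.82 against −0.30. For LPS + Dex against vehicle the median of all genes was −0.23 in wild-type and −0.28 in the labelled libraries. Relative to these downward shifts, the lower calls are a little smaller and the higher ones a little larger than the values below. Over both genotypes the 11 neutrophil markers summed to 127 to 162 FPKM with LPS against 6.58 to 61.1 with vehicle, and the 6 dendritic cell markers, almost all of it Ccr7, to 38.7 to 112 with LPS. The part of these cell types in the LPS changes was not tested. Changes are log2 ratios of FPKM + 1 with their standard error (SE) from limma, and the added 1 understates changes of weakly expressed genes.

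Nfe2l2 (NRF2 itself, ENSMUSG00000015839, chr2:75675513-75704641, minus strand) was at 139, 119 and 149 FPKM in wild-type vehicle libraries and at 52.8 and 48.9 with LPS. The labelled libraries had it at 129, 124 and 143 with vehicle and 50.4, 50.8 and 54.2 with LPS. Every LPS library lay below every vehicle library in both genotypes. The change was −1.39 ± 0.10, adjusted p = 1.21e-12, in wild-type (2.62-fold lower) and −1.33 ± 0.09, adjusted p = 2.18e-13, in the labelled libraries. Keap1 (the repressor of NRF2, ENSMUSG00000003308, chr9:21229730-21239361, minus strand) moved the other way, from 22.3, 25.4 and 23.4 FPKM to 38.8 and 41.9 in wild-type and from 22.1, 22.6 and 23.7 to 34.5, 34.2 and 43.96 in the labelled libraries. The LPS libraries were all above the vehicle libraries, by 0.75 ± 0.10, adjusted p = 4.69e-07, and by 0.69 ± 0.09, adjusted p = 2.1e-07. An antisense gene, Gm16754, overlaps Keap1, and whether the counting used strand is not given in the sources used here, so reads of the pair may not be told apart. Gm16754 itself was listed at a mean of 1.12 FPKM and at most 3.93.

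Among the glutathione genes the enzyme of the first step of synthesis fell and the enzyme that regenerates glutathione rose. Gclm, the modifier subunit of glutamate-cysteine ligase (ENSMUSG00000028124, chr3:122245557-122270732, plus strand), was at 163, 79.2 and 109 FPKM in wild-type vehicle and 33.5 and 34.2 with LPS, and in the labelled libraries at 125, 129.8 and 119 with vehicle against 58.8, 33.3 and 57.00 with LPS. The wild-type vehicle libraries were spread over a wide range, but none was as low as an LPS library. The changes were −1.70 ± 0.30, adjusted p = 1.89e-05, and −1.35 ± 0.27, adjusted p = 7.17e-05. Gclc, its catalytic subunit (ENSMUSG00000032350, chr9:77754535-77794485, plus strand), was far less abundant, 13.9 to 22.2 FPKM with vehicle and 6.76 to 8.63 with LPS over both genotypes. It fell by similar amounts (−1.11, adjusted p = 0.000363, and −1.16, adjusted p = 5.1e-05). Gsr, glutathione reductase (ENSMUSG00000031584, chr8:33652523-33698163, plus strand), rose from 88.8, 57.6 and 67.5 FPKM to 128 and 103 in wild-type and from 79.9, 86.6 and 70.01 to 150.3, 126 and 152 in the labelled libraries. The LPS libraries again lay above all vehicle libraries of their genotype (0.71 ± 0.21, adjusted p = 0.00599, and 0.85 ± 0.19, adjusted p = 0.000322). Without wild-type LPS replicate 2 the wild-type rise no longer passed the test (adjusted p = 0.0979).

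Slc7a11, which encodes the cystine importer xCT that feeds glutathione synthesis (ENSMUSG00000027737, chr3:49892526-50443614, minus strand), had the largest change of the 10. It was at 3.69, 0.845 and 2.54 FPKM in wild-type vehicle libraries and at 46.5 and 20.4 with LPS, and went from 1.73, 2.81 and 2.14 to 61.7, 36.7 and 82.6 in the labelled libraries. The lowest LPS library was several times above the highest vehicle library. The change was 3.35 ± 0.42, adjusted p = 1.08e-07, or 10.2-fold in wild-type, and 4.19 ± 0.38, adjusted p = 1.56e-10, or 18.2-fold in the labelled libraries, both on the log2(FPKM + 1) scale, which understates it.

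In the thioredoxin and peroxiredoxin branch, the peroxide-handling genes fell and thioredoxin reductase did not pass the test. Srxn1, sulfiredoxin, which repairs over-oxidised peroxiredoxins (ENSMUSG00000032802, chr2:152105516-152111376, plus strand), went from 401, 222 and 309 FPKM to 77.4 and 73.1 in wild-type. With the label it went from 238, 343 and 281 to 146, 80.6 and 140.4. Each LPS library was below each vehicle library (−1.99 ± 0.29, adjusted p = 1.16e-06, and −1.26 ± 0.26, adjusted p = 0.000117). Prdx1, an abundant peroxiredoxin that reduces hydrogen peroxide (ENSMUSG00000028691, chr4:116685544-116700822, plus strand), fell from 4532, 2804 and 4160.0 FPKM to 963 and 836 in wild-type. It fell from 3143, 3329 and 4110.3 to 2441, 921 and 1794 in the labelled libraries, where replicate 2 alone was near the wild-type LPS level. The changes were −2.06 ± 0.29, adjusted p = 6.25e-07, and −1.14 ± 0.26, adjusted p = 0.000361. Without LPS replicate 2 the change in the labelled libraries was −0.74 (adjusted p = 0.00829). Txnrd1, the cytosolic thioredoxin reductase (ENSMUSG00000020250, chr10:82833951-82897712, plus strand), was at 68.7 to 119 FPKM with vehicle and 82.4 and 77.3 with LPS in wild-type, and at 89.4 to 109.9 and 71.5 to 148 in the labelled libraries. The groups overlapped, and the differences of −0.26 ± 0.29 (adjusted p = 0.462; 95% interval −0.85 to 0.33) and −0.01 ± 0.26 (adjusted p = 0.987) did not pass the test.

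Sqstm1 encodes p62, a selective autophagy receptor that binds KEAP1 and is itself an NRF2 target (ENSMUSG00000015837, chr11:50199366-50210827, minus strand). It was at 882, 811 and 701 FPKM in wild-type vehicle and 335 and 414 with LPS, without overlap (−1.09 ± 0.22, adjusted p = 9.97e-05). With the label it was at 818, 859.7 and 676 with vehicle and 743, 352 and 632 with LPS, and the groups overlapped. The change there was −0.51 ± 0.19, adjusted p = 0.0242, which no longer passed with medians centred, with genes of any level, with only the groups compared, or without 1 of 3 libraries (LPS replicate 2 or vehicle replicates 1 or 2), with adjusted p of 0.0537 to 0.405. The change itself was −0.23 with medians centred and −0.19 without LPS replicate 2. Mrnip, a gene on the other strand that overlaps Sqstm1, was listed at a mean of 1.62 FPKM.

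**Figure D1:**
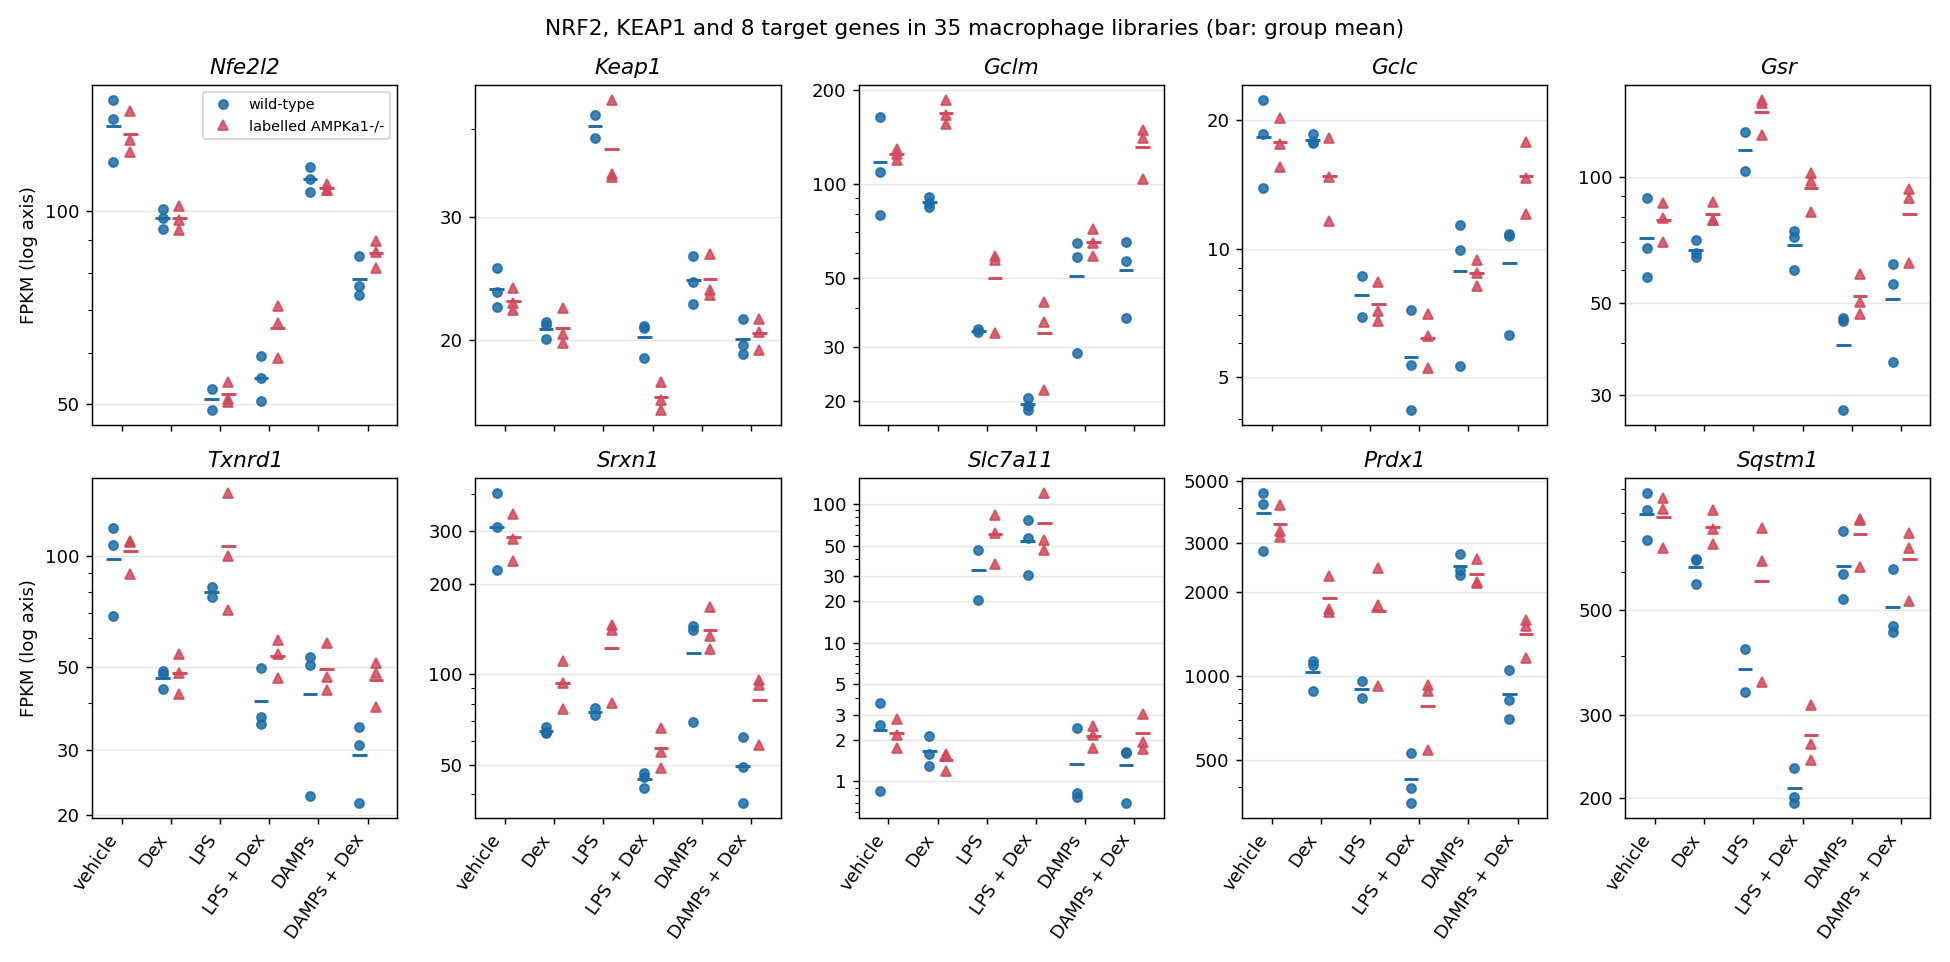
FPKM (log axis) of the 10 genes in each of the 35 libraries, by treatment, with circles for wild-type, triangles for libraries labelled AMPKa1-/- and a bar at each group mean. Nfe2l2 sits at 48.9 to 54.2 with LPS against 119 to 149 with vehicle, while Slc7a11 is at 20.4 to 82.6 with LPS and at most 3.69 with vehicle.

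Other genes of the pathway were called in both directions, beside 19.9% of all genes called higher and 35.8% lower in wild-type. Of 83 other genes tested from 7 lists (regulators, glutathione supply, thioredoxin and peroxiredoxin, NADPH supply, detoxification and heme, autophagy receptors beside Sqstm1, and amino acid stress genes), the detoxification and heme list had the most lower calls with LPS. In wild-type 16 of its 20 genes were lower and 1 higher, with a median of −1.61, and in the labelled libraries 15 were lower and 1 higher (median −1.02). Its leading genes were Ephx1, microsomal epoxide hydrolase (−6.19, adjusted p = 3.92e-19), and Ptgr1, prostaglandin reductase (−2.89, adjusted p = 3.43e-10). Among 11 regulators 2 were higher and 5 lower in wild-type: Maff, a small MAF partner of NRF2, rose by 3.84 (adjusted p = 4.54e-13) and Bach1, which represses NRF2 targets, changed by −1.74 (adjusted p = 1.79e-05). Glutathione supply split into 4 higher and 3 lower of 12, led by glutaredoxin Glrx (2.81, adjusted p = 5.3e-11) and Ggt5 (−1.83, adjusted p = 3.5e-06), a gamma-glutamyl transferase. Of 14 thioredoxin and peroxiredoxin genes 4 were higher and 8 lower, with Prdx5, a mitochondrial and peroxisomal peroxiredoxin, at 3.73 (adjusted p = 1.96e-14) and Sesn1, a sestrin, at −3.38 (adjusted p = 1.85e-14). Prdx5 and Prdx1 thus moved in opposite directions.

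The NADPH supply list had 2 higher and 4 lower of 7 with LPS in wild-type, among them cytosolic isocitrate dehydrogenase Idh1 (−2.30, adjusted p = 2.32e-08) and transaldolase Taldo1 (−1.91, adjusted p = 8.09e-10). Autophagy receptors were 2 higher and 8 lower of 11, led by Calcoco1 (−2.41, adjusted p = 4.06e-15) and Gabarapl1 (−1.77, adjusted p = 2.62e-10). Of 10 amino acid stress genes, which share ATF4 control with Slc7a11, 6 were lower and none higher in wild-type. Among the lower were Trib3 (−0.97, adjusted p = 0.00285) and Atf3 (−0.78, adjusted p = 0.00661), neither called without wild-type LPS replicate 2 (adjusted p = 0.254 and 0.158). Trib3 was also not called after quantile normalization (adjusted p = 0.0566) or with only the groups compared (adjusted p = 0.0778). In the labelled libraries 1 gene of that list was higher and 3 were lower. In the labelled libraries the same 14 named genes were all called in the same direction, for instance Maff at 4.14 and Ephx1 at −5.60.

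Dex alone lowered Nfe2l2, Txnrd1, Srxn1 and Prdx1, and none of the glutathione genes was called. In wild-type 4 of the 10 genes were called, all lower (30.9% of all genes called, 14.9% lower; median of the 10 −0.37, of all genes 0.05), and in the labelled libraries the same 4 (27.9% of all genes, 16% lower; median −0.33 against −0.05). These comparisons use the same vehicle libraries as those with LPS. In the labelled libraries the neutrophil list summed to 32.2 to 61.1 FPKM with vehicle and 78.0 to 116 with Dex. In wild-type its sums were 6.58 to 41.9 and 19.9 to 37.2. The fibroblast sums were 1.16 to 2.77 and 2.99 to 4.50 with the label, and 1.49 to 18.3 and 11.9 to 24.7 in wild-type. The part of these cell types in the Dex changes was not tested. Srxn1 changed most: Dex libraries were at 64.2, 66.8 and 63.9 FPKM in wild-type and 76.4, 110.4 and 93.98 in the labelled set. All lay far below the vehicle values given above, by −2.20 ± 0.26 (adjusted p = 1.92e-07; 4.59-fold lower) and by −1.61 ± 0.26 (adjusted p = 2.24e-05). Prdx1 with Dex was at 1135, 886 and 1095 FPKM in wild-type and at 1698, 2284 and 1746 in the labelled libraries. Both sets were below all their vehicle libraries (−1.86 ± 0.26, adjusted p = 2.69e-06, and −0.89 ± 0.26, adjusted p = 0.00986), the second not without vehicle replicate 3 of the labelled libraries (adjusted p = 0.0538).

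Txnrd1 with Dex was at 43.7, 48.9 and 48.1 FPKM in wild-type and 48.4, 42.3 and 54.5 in the labelled libraries. The lowest vehicle library of either genotype, at 68.7, was above all of them (−1.02 ± 0.26, adjusted p = 0.00339, and −1.07 ± 0.26, adjusted p = 0.00211). In wild-type the call was lost when replicates 2 and 3 alone were fitted (adjusted p = 0.0585). Nfe2l2 was at 93.6, 97.6 and 101 FPKM with Dex in wild-type and at 96.9, 93.2 and 102 in the labelled libraries, all below the vehicle libraries, with changes of −0.47 ± 0.09, adjusted p = 0.000139, and −0.43 ± 0.09, adjusted p = 0.000346. The other 6 genes did not pass. Gclm was at 90.9, 86.6 and 84.5 FPKM in wild-type, inside its vehicle range (−0.36 ± 0.27, adjusted p = 0.311), and at 167, 155 and 185 in the labelled libraries, above all of theirs (0.43 ± 0.27, adjusted p = 0.241; adjusted p = 0.0115 when only the groups compared were fitted). Slc7a11 stayed at 1.18 to 2.11 FPKM, Gclc at 11.6 to 18.5, Gsr at 64.4 to 86.96, Keap1 at 19.8 to 22.2 and Sqstm1 at 567 to 811 over both genotypes.

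The calls with Dex over all genes were 15.9% higher and 14.9% lower in wild-type, and 11.9% and 16% in the labelled libraries. In the pathway lists Dex gave lower calls for 5 of 7 NADPH supply genes, 6 of 14 thioredoxin and peroxiredoxin genes (1 higher), 8 of 20 detoxification and heme genes (2 higher), 3 of 12 glutathione supply genes and 5 of 10 amino acid stress genes in wild-type. Regulators (4 of 11) and autophagy receptors (4 of 11) had higher calls only. In the labelled libraries the same lists gave 2 of 7, 2 of 14 (3 higher), 2 of 20 (4 higher), 2 of 12 (1 higher) and 4 of 10 lower calls. There the regulators had 1 higher and 1 lower, and the autophagy receptors 6 higher. Hmox1, heme oxygenase 1, was among the higher ones and was chosen after its values were seen. It was at 1000.2, 729.6 and 886 FPKM with vehicle and 1942, 1675 and 2104 with Dex in wild-type, without overlap (1.13 ± 0.23, adjusted p = 0.000347). It also rose in the labelled libraries, by 1.76 ± 0.23, adjusted p = 8.79e-07.

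With LPS present, Dex brought Keap1 back down and lowered most of the antioxidant genes. The LPS libraries here (2 in wild-type) are the same ones that were compared with vehicle above. For LPS + Dex against LPS, 7 of the 10 genes were called in wild-type, all lower (34.1% of all genes called, 17.5% lower; median −0.75 against −0.03). Libraries labelled AMPKa1-/- had 6 lower and Nfe2l2 higher (37.7% of all genes, 18.4% lower and 19.3% higher; median −0.76 against 0.01). Keap1 was at 20.97, 18.8 and 20.8 FPKM in wild-type and 16.4, 17.5 and 15.9 in the labelled libraries, below every LPS library and also below every vehicle library of its genotype. The changes against LPS were −0.96 ± 0.10, adjusted p = 1.41e-08, and −1.12 ± 0.09, adjusted p = 6.81e-11. Nfe2l2 was at 54.96, 50.6 and 59.3 FPKM in wild-type, overlapping the LPS values (0.11 ± 0.10, adjusted p = 0.432), and at 70.9, 66.7 and 59.03 in the labelled libraries, above all of theirs (0.33 ± 0.09, adjusted p = 0.00301). That rise did not pass when only the groups compared were fitted (adjusted p = 0.0555).

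Gsr fell back with LPS + Dex, to 74.2, 71.7 and 59.8 FPKM in wild-type and 102, 82.6 and 97.8 in the labelled libraries. Every value lay below the LPS libraries (−0.74 ± 0.21, adjusted p = 0.00708, and −0.60 ± 0.19, adjusted p = 0.0134). The first call was lost without LPS replicate 2 (adjusted p = 0.124), and the second after quantile normalization, scaled without Saa3, or without LPS + Dex replicate 2 or LPS replicate 3 (adjusted p = 0.0522 to 0.0734). Against vehicle the differences of −0.04 ± 0.19 (adjusted p = 0.88) and 0.25 ± 0.19 (adjusted p = 0.262) did not pass. Prdx1 reached its lowest levels here, 353, 399 and 531 FPKM in wild-type and 929, 546 and 882 in the labelled libraries. The wild-type values were below both LPS libraries, and in the labelled set the highest LPS + Dex value was just above the lowest LPS value. The changes against LPS were −1.09 ± 0.29, adjusted p = 0.0037, and −1.06 ± 0.26, adjusted p = 0.00156, and against vehicle Prdx1 was 8.89-fold lower in wild-type. Txnrd1 was at 49.8, 36.8 and 35.1 FPKM in wild-type and 54.5, 46.8 and 59.5 in the labelled libraries. Sqstm1 was at 201, 196 and 232 FPKM in wild-type and 315, 241 and 260.1 in the labelled libraries. Both were below all LPS libraries of their genotype (Txnrd1 −0.97 ± 0.29, adjusted p = 0.0088, and −0.92 ± 0.26, adjusted p = 0.00498; Sqstm1 −0.83 ± 0.22, adjusted p = 0.00334, and −1.02 ± 0.19, adjusted p = 0.000104). Prdx1 in the labelled libraries was not called with only the groups compared (adjusted p = 0.0541), nor Txnrd1 there without LPS replicate 3 (adjusted p = 0.0621). Wild-type calls were lost for Prdx1 and Txnrd1 without LPS replicate 2 (adjusted p = 0.0532 and 0.0706) and for Sqstm1 without LPS replicate 3 (adjusted p = 0.0698).

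With LPS + Dex in wild-type, Gclm was at 20.5, 19.4 and 18.8 FPKM, and Srxn1 at 45.7, 41.9 and 46.8, all under both LPS libraries. Their changes of −0.76 ± 0.30 and −0.74 ± 0.29 (adjusted p = 0.0489 each) sat at the threshold and were lost under 6 other settings and without any 1 of the 5 libraries. In the labelled libraries Srxn1 was at 55.1, 48.8 and 66.4 (−1.06 ± 0.26, adjusted p = 0.00158) and Gclm at 35.96, 21.7 and 41.7 (−0.58 ± 0.27, adjusted p = 0.0911), which was called without LPS replicate 2 (−0.84, adjusted p = 0.0208) or LPS + Dex replicate 3 (−0.76, adjusted p = 0.0433). Slc7a11 was at 75.99, 30.5 and 56.8 FPKM in wild-type and 54.5, 46.1 and 119.6 in the labelled libraries, overlapping the LPS libraries in both. The differences of 0.70 ± 0.42 (adjusted p = 0.209; 95% interval −0.16 to 1.57) and 0.22 ± 0.38 (adjusted p = 0.692; interval −0.55 to 0.99) did not pass. Of the 7 wild-type calls, 2 were left without wild-type LPS replicate 2. The neutrophil list had its highest sums here, mostly S100a8, at 513 to 1201 FPKM in wild-type and 340 to 626 in the labelled libraries, against 127 to 162 with LPS over both genotypes, mostly Camp. Saa3, an acute-phase gene, took 16.0% to 24.0% of the summed FPKM with LPS + Dex and 3.74% to 7.58% with LPS. Scaled without Saa3, the calls of Gclm and Srxn1 in wild-type (adjusted p = 0.0817 and 0.0831) and of Gsr in the labelled libraries (adjusted p = 0.0524) were lost. The part of the neutrophil markers was not tested.

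Against vehicle, LPS + Dex gave 9 called genes in each genotype, 1 higher (Slc7a11) and 8 lower (54.2% of all genes in wild-type, 17.2% higher and 37% lower, and 57.4% in the labelled libraries, 16.7% higher and 40.8% lower). With medians centred wild-type had 1 higher and 7 lower, and the labelled libraries 2 higher (Slc7a11 and Gsr) and 7 lower. In wild-type Keap1 was lower by a small amount (−0.22 ± 0.09, adjusted p = 0.0441), which turned to 0.0059 (adjusted p = 0.973) with medians centred and was also lost after quantile normalization, scaled without Saa3, with only the groups compared, with the replicate block, and without any 1 of 4 of the 6 libraries (adjusted p = 0.0530 to 0.857). The Keap1 call in the labelled libraries was lost with medians centred (adjusted p = 0.305) and after quantile normalization (adjusted p = 0.151). Slc7a11 was 16.6-fold higher in wild-type and 21.3-fold in the labelled libraries, and Srxn1 6.62-fold and 4.98-fold lower, on the log2(FPKM + 1) scale. Whether the pair of agents differed from the sum of their separate changes was tested as an interaction of LPS and Dex, which called 3 of the 10 genes in wild-type (32% of all genes) and 4 in the labelled libraries (28.4%). Keap1 differed from the sum by −0.78 ± 0.14 (adjusted p = 6.92e-05) and −0.998 ± 0.13 (adjusted p = 8.82e-07), and Nfe2l2 by 0.58 ± 0.13 (adjusted p = 0.0012) and 0.76 ± 0.12 (adjusted p = 2.01e-05). Srxn1 was called in wild-type (1.46 ± 0.39, adjusted p = 0.00475), while Gclm (−1.01 ± 0.38, adjusted p = 0.0442) and Sqstm1 (−0.96 ± 0.27, adjusted p = 0.00896) were called in the labelled libraries. The Gclm call was lost without a filter, after quantile normalization, scaled without Saa3, without moderation, and without any 1 of 9 of the 12 libraries (adjusted p = 0.0535 to 0.163).

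**Figure D2:**
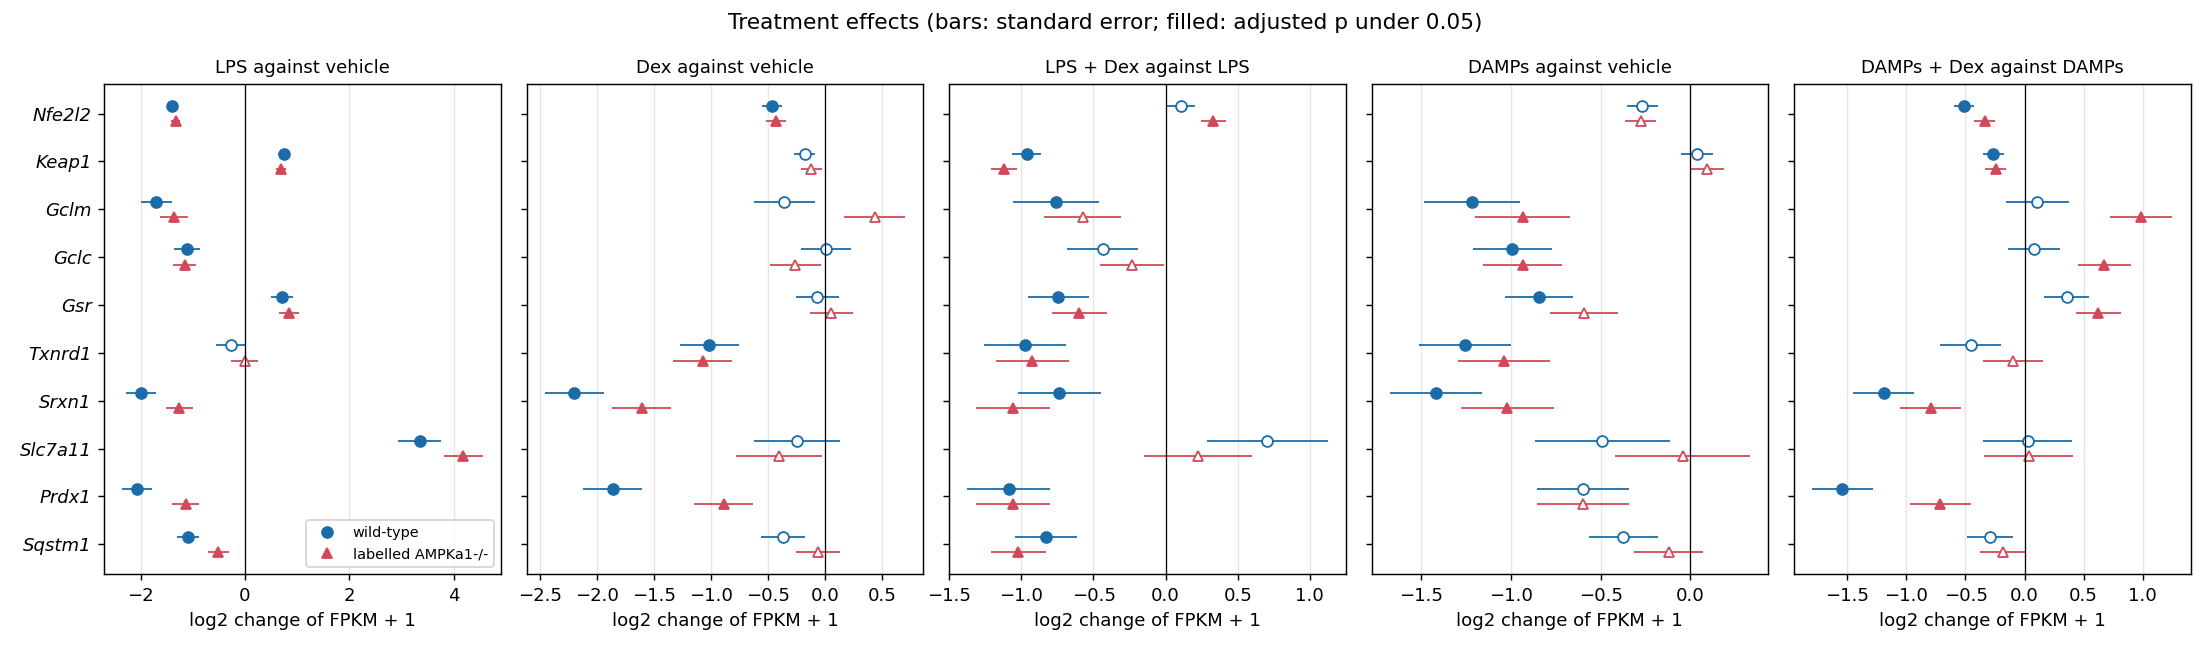
Log2 change of FPKM + 1 for each of the 10 genes in each treatment comparison, in wild-type and in libraries labelled AMPKa1-/-, with bars for the standard error and filled symbols for an adjusted p under 0.05. Keap1 goes up with LPS (0.75 in wild-type) and down with LPS + Dex against LPS (−0.96), and Slc7a11 has the largest rise (3.35 in wild-type with LPS).

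For LPS + Dex against LPS in wild-type, 16.6% of all genes were called higher and 17.5% lower, which several of the list counts are near. Among the pathway lists, it raised 5 and lowered 1 of 14 thioredoxin and peroxiredoxin genes, while Txnrd1, Srxn1 and Prdx1 were lower. Sesn1 (1.59, adjusted p = 1.39e-07) and Prdx6 (0.78, adjusted p = 0.00042), a peroxiredoxin that also acts on phospholipids, led it. Detoxification and heme genes were 7 higher and 4 lower of 20, with the glutathione transferase Gsta3 at 3.99 (adjusted p = 1.02e-08) and the scavenger receptor Cd36 at −2.97 (adjusted p = 8.5e-06). Regulators were 2 higher and 1 lower of 11: Maff fell by 2.41 (adjusted p = 1.38e-08), and Cul3, the scaffold of the ligase that KEAP1 serves, rose by 0.71 (adjusted p = 0.00014), though not when only the groups compared were fitted (adjusted p = 0.0579). Glutathione supply was 3 higher and 3 lower of 12, with Ggt5 (1.67, adjusted p = 3e-05) and the glutathione conjugate exporter Abcc1 (−1.49, adjusted p = 3.95e-06). NADPH supply was 3 higher and 2 lower of 7, with malic enzyme Me1 at −1.203 (adjusted p = 0.000214) and Taldo1 at 0.93 (adjusted p = 0.000185).

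Autophagy receptors were 4 higher and 3 lower of 11, including Calcoco1 (0.94, adjusted p = 1.11e-06) and Map1lc3a (0.76, adjusted p = 0.0131), the second lost in the fit of the compared groups alone (adjusted p = 0.123) and without wild-type LPS replicate 2 or LPS + Dex replicate 3. Amino acid stress genes were 6 lower and 1 higher of 10, with Atf3 at −2.80 (adjusted p = 2.84e-10) and the serine synthesis enzyme Phgdh at 2.29 (adjusted p = 8.1e-05). The 14 genes named for this comparison were called in the same direction in the labelled libraries, where the lists gave 5 higher and 1 lower thioredoxin and peroxiredoxin genes, 5 and 3 detoxification and heme genes, 2 and 4 regulators, 4 and 2 glutathione supply genes, 2 and 2 NADPH supply genes, 4 and 2 autophagy receptors, and 1 and 6 amino acid stress genes.

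DAMPs changed few genes in these cells. Gclm, Gclc, Txnrd1 and Srxn1 were among them in both genotypes and Gsr in wild-type only, but not Prdx1. In each genotype, leaving out 1 library could end all of these calls, as given below. In wild-type 5 of the 10 were called, all lower, where 2.01% of all genes were called and 0.793% were called lower (median of the 10 −0.72, of all genes −0.03). Libraries labelled AMPKa1-/- had 4 called, all lower (4.13% of all genes, 2.24% lower; median −0.60 against −0.07). Gclm was at 58.2, 64.6 and 28.7 FPKM with DAMPs in wild-type and 71.4, 64.7 and 58.7 in the labelled libraries. Srxn1 was at 140.0, 145 and 69.4 FPKM in wild-type and 134, 168 and 121 in the labelled libraries. Each was below all vehicle libraries of its genotype, and wild-type replicate 3 was the lowest of its group for both. Gclm changed by −1.22 ± 0.27, adjusted p = 0.0123, and −0.93 ± 0.27, adjusted p = 0.0409, and Srxn1 by −1.42 ± 0.26, adjusted p = 0.00394, and −1.02 ± 0.26, adjusted p = 0.0178.

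Txnrd1 was at 53.5, 50.9 and 22.5 FPKM in wild-type and 43.6, 58.1 and 47.2 in the labelled libraries with DAMPs. Gclc was at 11.4, 9.95 and 5.32 FPKM in wild-type and 8.17, 9.42 and 8.79 in the labelled libraries. All again lay under the vehicle libraries (Txnrd1 −1.26 ± 0.26, adjusted p = 0.00791, and −1.04 ± 0.26, adjusted p = 0.0148; Gclc −0.99 ± 0.22, adjusted p = 0.0147, and −0.93 ± 0.22, adjusted p = 0.0106). Gsr, at 45.2, 46.1 and 27.7 FPKM in wild-type, was called there (−0.84 ± 0.19, adjusted p = 0.0158), and at 47.1, 58.4 and 50.3 in the labelled libraries it was not (−0.59 ± 0.19, adjusted p = 0.0825). The direction was thus opposite to that with LPS, where Gsr was higher. Nfe2l2 (107 to 117 FPKM), Keap1 (22.5 to 26.5), Slc7a11 (0.771 to 2.501), Prdx1 (2162 to 2750.3) and Sqstm1 (527 to 778) were not called in either genotype. These calls rest on few libraries: none was left in wild-type without DAMPs replicate 3 or when only the groups compared were fitted, and none in the labelled libraries without DAMPs replicate 1 or vehicle replicate 2.

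The 7 pathway lists, in which a gene on 2 lists counts in each, gave 9 lower and 0 higher calls with DAMPs in wild-type (limma, adjusted p under 0.05), and 7 lower and 0 higher in the labelled libraries. These were of 85 entries tested, where 0.793% of all genes were called lower in wild-type and 2.24% in the labelled libraries. Of the amino acid stress genes 3 of 10 were lower in both, among them Psat1 (−1.30, adjusted p = 0.00345, and −1.57 in the labelled libraries) and the asparagine synthetase Asns (−1.17, adjusted p = 0.000641, and −0.95). Hmox1 fell by 1.21 (adjusted p = 0.00419) as the 1 detoxification and heme gene called in wild-type, beside 2 in the labelled libraries. NADPH supply had 2 lower of 7, Pgd (−0.71, adjusted p = 0.00341) and Mthfd2 (−0.68, adjusted p = 0.0204), and 1 in the labelled libraries. Glutathione supply had Abcc1 (−0.82, adjusted p = 0.0246) and 1 in the labelled libraries, thioredoxin and peroxiredoxin genes had Txnip (−0.71, adjusted p = 0.0203) and 0, and autophagy receptors had Gabarapl1 (−0.57, adjusted p = 0.0318) and 0. No regulator was called in either. Each gene named here for DAMPs lost its wild-type call under at least 1 other setting or left-out library.

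Dex added to DAMPs lowered Srxn1 and Prdx1 in wild-type, and in the labelled libraries by calls that did not hold under every setting. The DAMPs libraries here are the same ones that were compared with vehicle above. In wild-type 4 of the 10 were called, all lower (24.3% of all genes, 12.6% lower; median −0.28 against 0.03). Libraries labelled AMPKa1-/- had 7 called, 3 higher and 4 lower (25.3% of all genes, 13.1% higher and 12.2% lower; median −0.14 against 0.07), and 3 higher and 2 lower with medians centred. Prdx1 was at 1056, 705 and 822 FPKM in wild-type and 1518, 1588 and 1158 in the labelled libraries, under every DAMPs library (2162 to 2750.3 FPKM). The changes were −1.54 ± 0.26, adjusted p = 3.52e-05, and −0.71 ± 0.26, adjusted p = 0.0408. The second was lost without a filter, with medians centred, without moderation, and without any 1 of 5 of the 6 libraries (adjusted p = 0.0550 to 0.176). Srxn1 was at 62.04, 37.4 and 49.1 FPKM in wild-type and 92.2, 95.7 and 58.3 in the labelled libraries, below its DAMPs libraries (−1.19 ± 0.26, adjusted p = 0.000801, and −0.80 ± 0.26, adjusted p = 0.0226). Srxn1 in the labelled libraries was not called without a filter, DAMPs replicate 2 or DAMPs + Dex replicate 3 (adjusted p = 0.0557, 0.110 and 0.163). Nfe2l2 went to 73.8, 76.2 and 85.1 FPKM in wild-type and 86.3, 81.6 and 89.6 in the labelled libraries, below its DAMPs libraries too (−0.51 ± 0.09, adjusted p = 4.33e-05, and −0.34 ± 0.09, adjusted p = 0.00419). Keap1, at 19.1 to 21.5 FPKM, changed by −0.26 (adjusted p = 0.0334) and −0.24 (adjusted p = 0.0488), calls that several settings ended. The neutrophil list went from 9.25 to 20.3 FPKM with DAMPs to 27.6 to 49.4 with DAMPs + Dex in wild-type. In the labelled libraries it went from 37.0 to 71.1 to 73.4 to 134. The fibroblast sums were 1.34 to 8.22 and 9.42 to 18.5 in wild-type, and 1.73 to 3.12 and 1.997 to 4.37 with the label. The part of these cell types was not tested.

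The 3 higher genes in the labelled libraries were those of glutathione synthesis and recycling. Gclm was at 148, 141 and 104 FPKM there (0.99 ± 0.27, adjusted p = 0.00624), Gclc at 17.7, 14.6 and 12.03 (0.68 ± 0.22, adjusted p = 0.0238) and Gsr at 93.5, 88.8 and 62.2 (0.62 ± 0.19, adjusted p = 0.0152). All of these libraries were above the DAMPs libraries of the same label. In wild-type Gclm was at 65.3, 37.01 and 56.3 FPKM, Gclc at 6.28 to 10.8 and Gsr at 36.1 to 61.7, which overlapped those with DAMPs alone (log2 changes 0.11, 0.08 and 0.36, none called). Without wild-type DAMPs + Dex replicate 2, Gsr was called there as well (0.59, adjusted p = 0.0306). The difference between the genotypes in this response did not pass (Gclm 0.88 ± 0.38, adjusted p = 1). Without DAMPs replicate 1 or DAMPs + Dex replicate 1 of the labelled libraries, 3 of their 7 calls were left, and those of Gclc and Gsr were among the lost. Both were also lost without DAMPs + Dex replicate 2, and Gclc without DAMPs replicate 3 or without a filter (adjusted p = 0.0519 to 0.123 for Gclc and 0.0644 to 0.0877 for Gsr). Txnrd1, at 21.6 to 51.4 FPKM, Slc7a11, at 0.702 to 3.06, and Sqstm1, at 449.6 to 725, were not called in either genotype, but without wild-type DAMPs replicate 3 Txnrd1 was called lower in wild-type (−0.85, adjusted p = 0.0098, against −0.46 with it). Hmox1 rose with DAMPs + Dex against DAMPs, by 1.99 ± 0.23, adjusted p = 9.91e-08, and by 2.35 ± 0.23, adjusted p = 5.19e-09. Of the 85 list entries, this comparison called 13 higher and 16 lower in wild-type (11.7% and 12.6% of all genes) and 20 higher and 13 lower in the labelled libraries (13.1% and 12.2%), with autophagy receptors 4 higher and 1 lower, and 7 higher and 1 lower.

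Between the genotypes, as labelled (the Prkaa1 transcript was not called lower under any treatment), none of the 10 genes was called with vehicle, and Gclm and Prdx1 were with Dex. With vehicle none of the 10 was called between libraries labelled AMPKa1-/- and wild-type (0.432% of all genes called), with differences (labelled minus wild-type) of −0.10 (Prdx1, 95% interval −0.63 to 0.43) to 0.16 (Gsr, −0.23 to 0.55), and none at an unadjusted p under 0.05. With Dex 2 were called, both higher in the labelled libraries, but 26.5% of all genes were called there too (11% higher). Gclm, at 90.9, 86.6 and 84.5 FPKM in wild-type and 167, 155 and 185 in the labelled libraries, did not overlap (0.94 ± 0.27, adjusted p = 0.0161, 95% interval 0.40 to 1.49). Prdx1, at 1135, 886 and 1095 FPKM in wild-type and 1698, 2284 and 1746 in the labelled libraries, did not overlap either (0.87 ± 0.26, adjusted p = 0.019, interval 0.35 to 1.40). Neither call was left without Dex replicate 2 of either genotype, and Prdx1 was not called after quantile normalization (adjusted p between 0.0672 and 0.125 over these).

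With DAMPs + Dex 1 gene was called (1.06% of all genes, 0.555% higher). It was Gclm again, at 65.3, 37.01 and 56.3 FPKM in wild-type and 148, 141 and 104 in the labelled libraries, without overlap (1.31 ± 0.27, adjusted p = 0.00886, interval 0.77 to 1.86). The call was lost without DAMPs + Dex replicates 1 or 2 of the labelled libraries or replicate 2 of wild-type, or when only the groups compared were fitted (adjusted p = 0.0552 to 0.109). The other 9 genes had differences of 0.03 (Keap1) to 0.73 (Prdx1). An unadjusted limma p under 0.05 was found for 6 of the 10 genes, beside 1067 of all 11354 genes tested. The median of the 10 was 0.66, against 0.01 over all genes.

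With LPS, LPS + Dex and DAMPs none of the 10 was called by limma between the genotypes (0.766%, 0.669% and 0.731% of all genes called). At an unadjusted p under 0.05 there were 4, 5 and 1 of the 10, beside 1300, 921 and 860 of all 11354 genes tested. Prdx1 differed by 0.83 ± 0.29 with LPS (adjusted p = 0.221) and by 0.86 ± 0.26 with LPS + Dex (adjusted p = 0.157). Without LPS replicate 2 of the labelled libraries, Prdx1 (1.22, adjusted p = 0.0141) and Sqstm1 (0.88, adjusted p = 0.0144) were called with LPS. Nfe2l2 differed by 0.00 with Dex (interval −0.18 to 0.18) and by 0.03 with LPS (interval −0.17 to 0.22). Its labelled and wild-type group means were 65.6 and 54.9 FPKM with LPS + Dex, and 85.8 and 78.4 with DAMPs + Dex. They were 132 and 136 with vehicle, and 109 and 112 with DAMPs. None of these differences was called, and the libraries overlapped in each. Whether a response differed between the genotypes was tested as an interaction, which in limma called 0 of the 10 and 0 of all genes in each of the 5 responses. At an unadjusted p under 0.05 there were 1 of the 10 for LPS, 2 for Dex, 2 for DAMPs + Dex against DAMPs and 0 for the other two. For Dex against vehicle the interaction of Prdx1 was 0.97 ± 0.36 (adjusted p = 0.194) and that of Gclm 0.79 ± 0.38 (adjusted p = 0.226), and 2441 genes had an unadjusted p under 0.05. For LPS, LPS + Dex against LPS, DAMPs and DAMPs + Dex against DAMPs it was 514, 311, 66 and 234 genes.

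**Figure D3:**
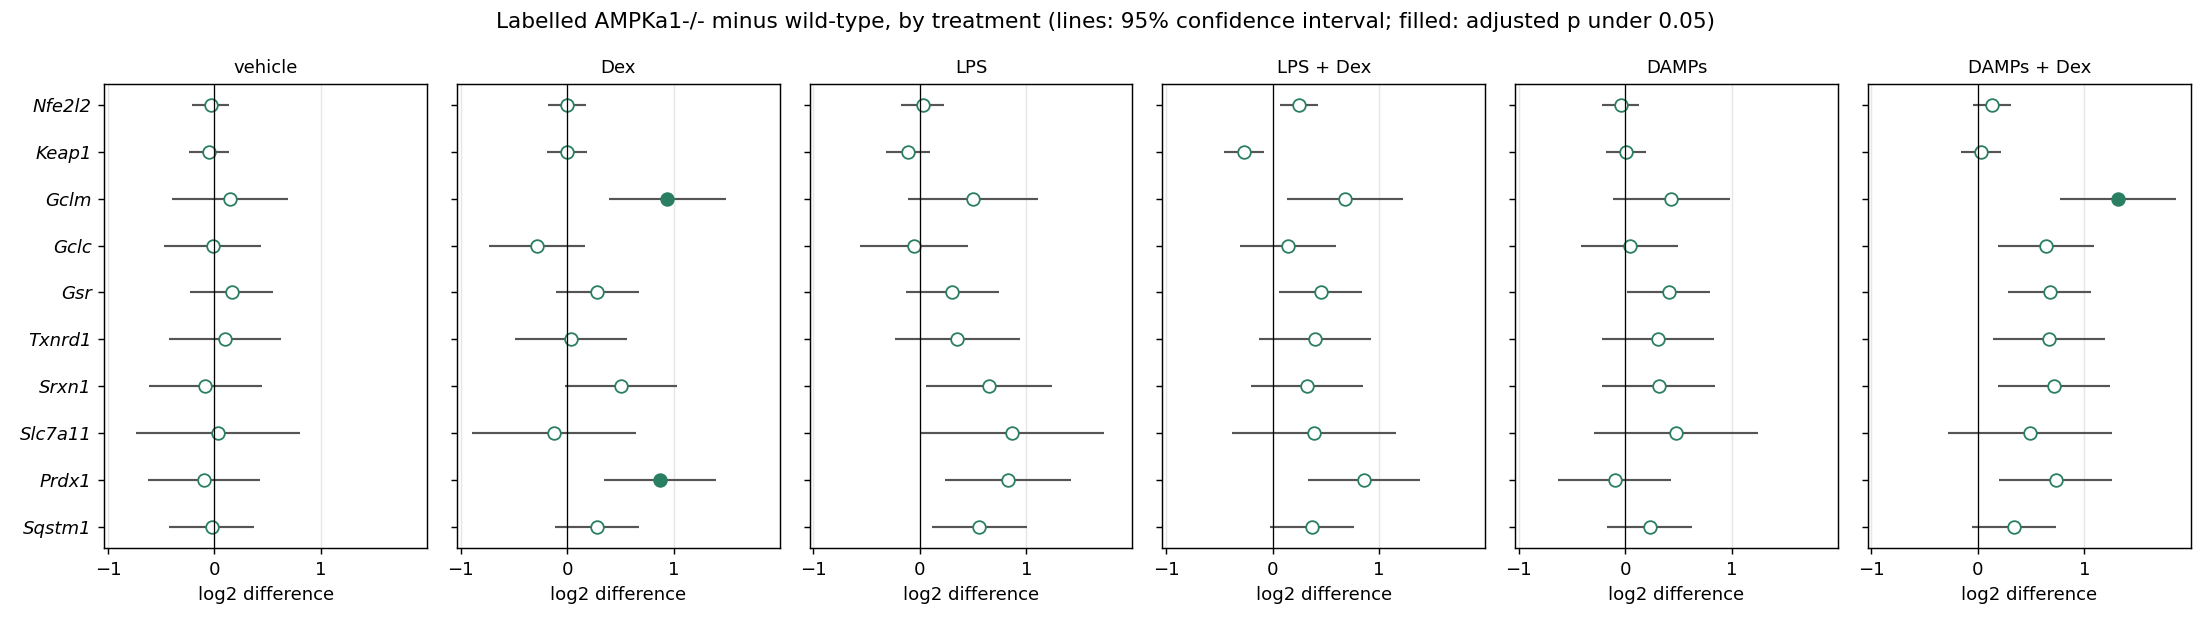
Log2 difference of FPKM + 1 (labelled AMPKa1-/- minus wild-type) for the 10 genes under each of the 6 treatments, with bars for the 95% interval and filled symbols for an adjusted p under 0.05. Only Gclm (0.94 with Dex, 1.31 with DAMPs + Dex) and Prdx1 (0.87 with Dex) are filled.

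Other values differed between the genotypes alongside these genes. The fibroblast list summed to 11.9 to 24.7 FPKM in wild-type Dex libraries and 2.99 to 4.50 in those labelled AMPKa1-/-, and to 9.42 to 18.5 and 1.997 to 4.37 with DAMPs + Dex. With vehicle the sums were 1.49 to 18.3 and 1.16 to 2.77. Its most abundant gene, Col1a2, ran from 0.159 to 11.9 FPKM over all libraries, and Pdgfra stayed under 0.5. The neutrophil list summed to 19.9 to 37.2 FPKM in wild-type Dex libraries and 78.0 to 116 in the labelled ones, and the macrophage marker Lyz2 was at 16768 to 20418 and 27101 to 33976. The wild-type Dex libraries held 15942581 to 18899907 fragments and the labelled ones 19817989 to 21246678. The part of these in the genotype differences was not tested, and in bulk RNA fewer cells of a type and less RNA per cell cannot be told apart.

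Over all genes tested with Dex, the labelled libraries had 11% higher and 15.5% lower calls. In the pathway lists these libraries had higher calls than wild-type for 9 of 20 detoxification and heme genes (none lower, median 0.60), 7 of 14 thioredoxin and peroxiredoxin genes (1 lower), 5 of 7 NADPH supply genes, 3 of 12 glutathione supply genes and 4 of 11 autophagy receptors (2 lower). Regulators had 4 lower calls of 11, and amino acid stress genes 1 in each direction. Over the other 5 treatments the 7 lists together, with 85 entries tested in each, gave 14 higher and 6 lower calls, where 0.432% to 1.06% of all genes were called. A pair of genes stood out and were chosen after their values were seen. Nqo1, the quinone reductase often used as a readout of NRF2, was at 1.21, 1.54 and 2.08 FPKM with LPS + Dex in wild-type and 7.53, 3.92 and 7.08 in the labelled libraries. With DAMPs + Dex it was at 2.03 to 3.21 FPKM in wild-type and 5.801 to 10.5 in the labelled libraries, with Dex at 4.48 to 5.698 against 8.84 to 14.8, and with LPS at 1.19 to 2.36 against 4.11 to 9.16. In each of these 4 treatments every labelled library was above every wild-type library.

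The differences in Nqo1 were 1.04 with Dex (adjusted p = 0.00895), 1.46 with LPS (adjusted p = 0.0112), 1.43 with LPS + Dex (adjusted p = 0.00313) and 1.29 with DAMPs + Dex (adjusted p = 0.00632). With vehicle (0.42, adjusted p = 0.99) and DAMPs (0.54, adjusted p = 0.628) it was not called. When only the groups compared were fitted, the calls with LPS, LPS + Dex and DAMPs + Dex were lost (adjusted p = 0.382, 0.211 and 0.0715). Leaving out 1 library also ended the calls with Dex (labelled replicate 2, adjusted p = 0.0836), LPS (labelled replicate 1 or wild-type replicate 3, 0.0551 and 0.399) and DAMPs + Dex (replicate 2 of either genotype, 0.0845 and 0.0614). With LPS + Dex the call was lost when only wild-type replicates 2 and 3 were used (adjusted p = 0.0617). Txnip, which binds and inhibits thioredoxin, went the other way: with vehicle it was at 499, 526 and 433 FPKM in wild-type and 249, 239 and 182 in the labelled libraries (−1.13 ± 0.17, adjusted p = 0.000241). It was also lower with Dex (−0.92, adjusted p = 0.0012), DAMPs (−0.75, adjusted p = 0.0257) and DAMPs + Dex (−0.99, adjusted p = 0.00112). The call with DAMPs was lost without any 1 of the 6 libraries, with medians centred, with only the groups compared and with wild-type replicates 2 and 3 only (adjusted p = 0.0553 to 0.178). With LPS (−0.24, adjusted p = 0.626) and LPS + Dex (−0.11, adjusted p = 0.997) it was not called.

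Across all 12 groups the genes differed widely in how far they ranged. Group means of Slc7a11 ran from 1.34 FPKM (wild-type DAMPs) to 73.4 (labelled AMPKa1-/-, LPS + Dex), a span of 4.93 between means of log2(FPKM + 1). Prdx1 spanned 3.15, Gclm 3.05 and Srxn1 2.73. All 3 had their lowest mean in wild-type LPS + Dex. Keap1 spanned least, 1.23, from 16.6 FPKM (labelled AMPKa1-/-, LPS + Dex) to 40.4 (wild-type LPS). Nfe2l2 spanned 1.39. In wild-type its order was vehicle (119 to 149 FPKM), DAMPs (107 to 117), Dex (93.6 to 101), DAMPs + Dex (73.8 to 85.1), LPS + Dex (50.6 to 59.3) and LPS (48.9 to 52.8). The last 2 groups overlapped, and the first 2, without overlap, did not pass the test (−0.27, adjusted p = 0.131).

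Over the 35 libraries the tested genes whose log2(FPKM + 1) followed Nfe2l2 most closely were Cd300lb (Pearson r 0.965), Lipa (0.962) and Ighm (0.959), and those closest to Slc7a11 were Trem1 (0.972), Trem3 (0.972) and Dnmt3l (0.972). The libraries share treatments, so these values describe the pattern over groups. Within groups, 6 enzyme genes (Gclm, Gclc, Gsr, Txnrd1, Srxn1 and Prdx1) deviated from their group means together: the correlation of deviations had a median of 0.79 over their 15 pairs (0.26 to 0.88), with each pair sharing libraries. Nfe2l2 followed them little, with a median of 0.18 over 6 pairs (0.09 to 0.38). Slc7a11 and Sqstm1 deviated with the 6 enzyme genes as well, at 0.53 to 0.67 and 0.24 to 0.69. Pairs of other tested genes were not compared, so whether whole libraries shifted alike was not tested. Mean deviations of the 6 genes were 0.36 (log2) in wild-type vehicle replicate 1 and −0.41 in replicate 2. They were −0.56 in wild-type DAMPs replicate 3, −0.40 in wild-type DAMPs + Dex replicate 2, −0.44 in LPS replicate 2 and −0.32 in DAMPs + Dex replicate 3 of the labelled libraries. Wild-type DAMPs replicate 3 is the library without which no wild-type DAMPs call was left.

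**Figure D4:**
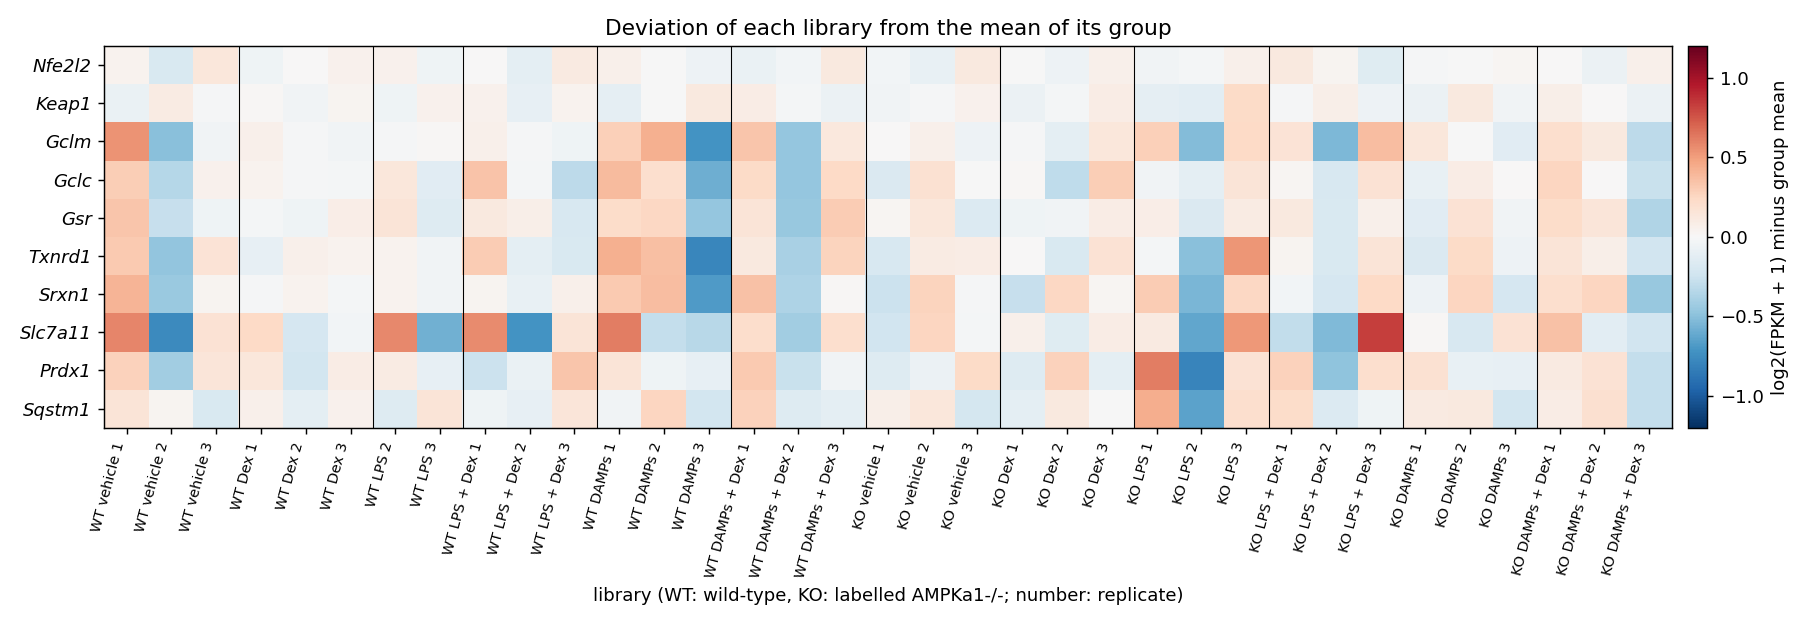
Deviation of each library from the mean of its group, as log2(FPKM + 1), for the 10 genes (rows) in the 35 libraries (columns, WT for wild-type and KO for labelled AMPKa1-/-), with red above and blue below the group mean. The enzyme rows share colours within a column, as in wild-type DAMPs replicate 3 (mean of 6 genes −0.56), while the Nfe2l2 and Keap1 rows stay pale.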

How the data were processed

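RNA was extracted with TRIzol from cultured BMDMs, kept overnight in serum-free medium before treatment, and sequenced by a service provider. The authors deposited FPKM values per Ensembl gene and library. The submitters' processing notes name Bowtie2 2.2.3, TopHat2 2.0.12, HTSeq 0.6.1, DESeq2, GRCm38 and mm10, without roles. The program that made the FPKM, its annotation and its strand setting are each not given in the sources used here. According to the study's methods, replicates are cultures from individual mice. Symbols and positions came from GENCODE M21 (GRCm38), which named 46574 of 47069 identifiers.

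FPKM are not counts. With annotated gene lengths, between 55.3% and 63.9% of the values below 10 fragments were whole to within 0.001, too few for a count test. Replicates of a group correlated at 0.967 to 0.993 (Pearson, log2(FPKM + 1), across genes), and no pair of libraries shared a value above 0.

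Genes with a mean of at least 1 FPKM over the 35 libraries (11354) were fitted with limma 3.58.1 (R 4.3.3; 12 group means, all libraries, trended empirical Bayes, 2-sided) on log2(FPKM + 1). Benjamini-Hochberg adjustment ran over all genes of each of 25 comparisons, and a gene was called at an adjusted p under 0.05. The 2 wild-type LPS libraries borrow the spread of the other groups; wild-type LPS replicate 1 was not analysed here. Tables and figures used Python 3.11.15, pandas 2.3.3, numpy 2.4.6 and matplotlib 3.10.9.

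The 10 genes and the pathway and marker lists were chosen with earlier results of these data known. A listed macrophage marker is not reported here. From each list, at most the 2 called genes with the largest change were named for LPS, LPS + Dex against LPS and DAMPs in wild-type. Others are said to have been chosen after their values were seen.

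Same-numbered samples deviated together (3 pairs, each correlation over 0.1) in the labelled libraries for LPS, Dex and LPS + Dex against vehicle and for LPS + Dex against LPS, and between the genotypes with LPS + Dex. The pairing there comes from the data alone, since no source says whether a number marks the same mouse across treatments. The main fit did not use the pairing, and the replicate block did. Alternatives were another pseudocount (0.1), no filter, a minimum of 5 FPKM, median centring, quantile normalization, scaling without Saa3, fitting only the groups compared, no moderation, a replicate block, wild-type replicates 2 and 3 only, and each library left out.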

Additional observations from a re-analysis of the deposited data

How the results depend on the processing

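Of 88 calls among 250 pairs of gene and comparison, all 88 were kept with a pseudocount of 0.1 and with a minimum of 5 FPKM, 86 with a replicate block, 83 without moderation, 82 scaled without Saa3, 81 after quantile normalization, 79 each without a filter, with medians centred and with wild-type replicates 2 and 3 only, and 76 with only the groups compared. The one reversal was Keap1 for LPS + Dex against vehicle in wild-type, at 0.0059 with medians centred, and the cause was not tested. Counts of called genes that moved by over 1.5 times were DAMPs against vehicle in wild-type, from 5 to 0 with only the groups compared and to 0 with wild-type replicates 2 and 3 only; DAMPs + Dex against DAMPs in the labelled libraries, from 7 to 3 without a filter; and, between the genotypes, Dex from 2 to 1 after quantile normalization and DAMPs + Dex from 1 to 0 with only the groups compared. The causes were not tested.

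With each library left out in turn, the count in wild-type was 8 to 9 for LPS, 4 to 4 for Dex, 2 to 5 for LPS + Dex against LPS, 8 to 9 for LPS + Dex against vehicle, 0 to 6 for DAMPs, 3 to 4 for DAMPs + Dex against DAMPs, and 3 to 4 for the interaction of LPS and Dex. In the labelled libraries these were 8 to 9, 3 to 4, 5 to 8 (5 without LPS replicate 3), 9 to 9, 0 to 3, 3 to 4 and 3 to 4. Between the genotypes they were 0 to 0 with vehicle, LPS + Dex and DAMPs, 0 to 2 with Dex, LPS and DAMPs + Dex, and 0 to 0 for all interactions of genotype and treatment.

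The replicate block ended the calls of Keap1 for LPS + Dex against vehicle in wild-type (adjusted p = 0.0530) and for DAMPs + Dex against DAMPs in the labelled libraries (adjusted p = 0.0581), gained Gsr for the interaction of LPS and Dex in wild-type (−0.76, adjusted p = 0.0408), and changed no other call among the 10 genes. Calls gained beyond those given beside their results included Keap1 for Dex in wild-type after quantile normalization (−0.28). Nfe2l2 was gained for DAMPs in wild-type without vehicle replicate 2 (−0.36) and in the labelled libraries without moderation (−0.28). Between the genotypes with DAMPs + Dex, Gsr was gained without labelled replicate 3 (0.86). With only the groups compared, Gsr for DAMPs in the labelled libraries (−0.59) and Srxn1 between the genotypes with Dex (0.50) were gained as well. Gsr was also gained for the interaction of LPS and Dex with wild-type replicates 2 and 3 only (−0.92) and without vehicle replicate 1 (−0.84) in wild-type, and with medians centred (−0.73) and only the groups compared (−0.65) in the labelled libraries. For the other genes named, the same alternatives were run, a choice made after seeing the data. Of 96 pairs of gene and comparison, 65 kept their call under all of them and 0 reversed. With 3 libraries a group, or 2, the 95% interval of Slc7a11 for LPS + Dex against LPS ran from −0.16 to 1.57 in wild-type and from −0.55 to 0.99 in the labelled libraries.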
